A study of Mus musculus with 16 samples.

Results

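Ephx1, Ifitm10 and Pacsin1 are 3 of the 55536 annotated mouse genes that were counted in 16 libraries of CD8+ T cells, and their 21 annotated transcripts were counted with them. They were chosen by symbol because their RNA was strongly higher in the Tardbp gRNA group, so the difference between groups is given here as a description with no test. What was tested is how the 3 genes vary between libraries of the same group, how they vary with other measures, and how their relatives and neighbours changed.

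The cells were CD8+ T cells of OT-I mice on C57BL/6J, whose transgenic T cell receptor recognises SIINFEKL, a peptide of ovalbumin. By the study's methods the donors were Rag-deficient and carried CD45.1 and CD45.2, and the sort used both markers. The cells were electroporated with Cas9 and a scrambled guide (Control gRNA, 8 libraries) or with Cas9 and a guide against Tardbp (Tardbp gRNA, 8 libraries), and moved into C57BL/6J hosts. Both groups received the peptide together with the agonist antibodies anti-OX40 and anti-41BB, and CD8+ cells of spleen and lymph nodes were sorted 4 days later by the labels (the study's methods give a shorter time). The edited cells were a population and not a clone, the study's text names 8 individual recipients, and the labels give no ages.

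The 3 genes belong to different protein families. Ephx1 encodes microsomal epoxide hydrolase, an enzyme of the endoplasmic reticulum that opens reactive epoxides of drugs, pollutants and lipids into diols. Ifitm10 encodes a member of the family of interferon-induced transmembrane proteins, whose better known relatives hinder the entry of viruses into cells. Pacsin1 (syndapin I) encodes an F-BAR protein, which binds and bends membranes and, through its SH3 domain, binds dynamin and N-WASP during endocytosis. It is best known from neurons. The product of Tardbp is TDP-43, which binds RNA, prefers UG repeats and takes part in splicing.

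Estimated counts totalled 73649630 to 93893357 per Control library and 56016533 to 94801105 per Tardbp library. Tardbp RNA was at 171.8 to 206.9 CPM (TMM-scaled counts relative to library size) in the Control libraries and 110.4 to 147.2 CPM in the Tardbp libraries, without overlap. Over all 16650 genes tested, 46.7% were called at an edgeR adjusted p under 0.05, 23.5% higher and 23.3% lower, and the marker counts are to be read against these shares. All 10 CD8 T cell markers (such as Cd8a, Cd3e and Trac) were called higher in Tardbp gRNA, with a summed level of 8202 to 9677 CPM against 11001 to 14155. Of 10 B cell markers 7 were tested and 2 called higher, and the list summed to 392.3 to 470.1 against 560.1 to 727.3 CPM. Ighm made up 367.0 to 452.3 and 533.6 to 698.2 CPM of it, while Ms4a1 reached at most 2.22 CPM and Pax5 0.0259 CPM. The 10 myeloid markers summed to 25.7 to 48.0 against 33.0 to 94.1 CPM, with 4 of 9 tested called higher. Of 5 NK cell markers 3 were tested and 1 called higher, with sums of 12.6 to 63.4 against 37.2 to 100.8 CPM. Eomes made up 12.0 to 62.9 and 33.7 to 98.4 CPM of these sums, while Ncr1 reached at most 2.24 CPM and Klrb1c 2.20 CPM. The 7 red cell precursor markers summed to 0.442 to 17.8 against 9.1 to 181.6 CPM, with 4 of 5 tested called higher. For CD4 T cells the sums were 4.39 to 20.7 against 6.15 to 15.6 CPM with 0 of 4 markers called by edgeR (0 at an unadjusted p under 0.05). For plasmacytoid dendritic cells they were 164.7 to 219.0 against 152.8 to 194.7 CPM, with 2 of 7 tested called lower. Bst2 made up 66.4 to 120.3 and 44.6 to 91.8 CPM of these sums, and Irf8 36.4 to 76.1 and 50.1 to 72.4 CPM. Siglech reached at most 0.0815 CPM and Klk1 0.318 CPM. RNA concentration before dilution (no unit given) ran from 34.9 to 197.1 for Control libraries and from 10.1 to 24 for Tardbp libraries, so it cannot be told apart from the groups. The part of these differences in the results below was not tested except where a correlation is given. In bulk RNA, fewer cells of a type and less RNA per cell cannot be told apart.

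The sequences below show the starts that the 3 genes used and those they did not. The first set is the 120 bases before an annotated start with its first base, from RefSeq on GRCm38.p6, with the first base and the matches of the searched motifs in capitals. Windows were matched for 1 start of Ephx1, 3 of Ifitm10 and 1 of Pacsin1. The Ephx1 window lies at chr1:181017569-181017689 and that of Ifitm10 at chr7:142372259-142372379, both on the minus strand, and both belong to starts that carried counts. The Pacsin1 window, at chr17:27685119-27685239 on the plus strand, belongs to the downstream start, which carried none.
Ephx1: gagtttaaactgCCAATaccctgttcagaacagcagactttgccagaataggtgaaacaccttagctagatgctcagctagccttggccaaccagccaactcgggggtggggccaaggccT
Ifitm10: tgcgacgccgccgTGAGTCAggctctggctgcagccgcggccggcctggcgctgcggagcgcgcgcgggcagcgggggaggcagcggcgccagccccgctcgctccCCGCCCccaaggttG
Pacsin1: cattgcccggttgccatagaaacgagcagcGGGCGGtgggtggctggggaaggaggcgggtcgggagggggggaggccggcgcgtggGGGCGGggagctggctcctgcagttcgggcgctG

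The 3 windows were not alike in base composition or motifs. Over the 300-base window, from 250 bases before to 50 after the start, GC content was 54.3% for Ephx1, 73.7% for Ifitm10 and 71.7% for the Pacsin1 start without counts, against a median of 52.7% over 32851 windows. CpG dinucleotides numbered 5, 32 and 33, against a median of 7. On both strands, 8 motifs were searched. CCAAT stood in the Ephx1 window at position -108 (the first base of the start is 0) and in 37.4% of all windows. TATAAA stood there at -214, outside the printed stretch, and in 13.6% of all windows. GGGCGG, the GC box, was found after the Ephx1 start at 1 and 16, at -14 on the opposite strand of the Ifitm10 window, and at -90 and -33 in the Pacsin1 window, against 35.7% of all windows. TGANTCA, the AP-1 motif, was found at -107 in the Ifitm10 window, and 7.81% of all windows hold it. TGACNNNGC (the core of the antioxidant response element, 12.4% of windows), TNGCGTG (the core bound by the aryl hydrocarbon receptor, 5.07%), CACGTG, the E-box (7.15%), and the interferon-stimulated response element (3.44%) had no match in these windows. None of these matches overlapped another.

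The second set is the first exon junction, 15 bases on each side, with the second exon in capitals, read from GENCODE M21 transcripts. The left side separates the used start of each gene from the other start shown, but not the transcripts that share exon 1. Ephx1-202 has the same junction as Ephx1-201, and Ifitm10-201 the same as Ifitm10-202.
Ephx1-201: agagcgaccctgacaGAGTCATGTGGCTGG
Ephx1-203: tggaaggttcttgttGAGTCATGTGGCTGG
Ifitm10-202: tcgagtcgccagtagGCTCAGGGCCCCAGC
Ifitm10-203: ctccacccccacatgGCTCAGGGCCCCAGC
Pacsin1-201: tgctccggcgcccagCCTGTGAGCAGCAGG
Pacsin1-204: tgctccggcgcccagTTTGAGGCTCATCCC
Pacsin1-211: tgctccggcgcccagGGACACAGACCGGGA
Pacsin1-208: cccagcccggctcagCCTGTGAGCAGCAGG
Ephx1-203, Ifitm10-203 and Pacsin1-208 begin at starts with few or no counts. Pacsin1-201, Pacsin1-204 and Pacsin1-211 share the end of exon 1 and enter exon 2 at 3 different acceptor sites.

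Ephx1 (ENSMUSG00000038776.13, chromosome 1, 180976210 to 181020904, minus strand, GRCm38) had 3.36 CPM in the lowest Control library, 5.41 as the median and 10.7 in the highest. In Tardbp gRNA the lowest, median and highest libraries had 20.7, 27.7 and 56.7 CPM. Every Tardbp library lay above every Control library, and within Tardbp gRNA 1 library, replicate 4, stood apart at the top. The means were 6.24 ± 2.63 and 31.0 ± 11.1 CPM (SD, n = 8 per group), a ratio of 4.98 and a log2 fold change of 2.32 (SE 0.243, edgeR).

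Ifitm10 (ENSMUSG00000045777.14, chromosome 7, 142325837 to 142373753, minus strand) had 1.53, 3.31 and 6.90 CPM in the lowest, median and highest Control libraries. In Tardbp gRNA these were 12.2, 14.6 and 22 CPM, again with no overlap. The means were 3.50 ± 1.58 and 15.6 ± 3.23 CPM (SD, n = 8 per group), a ratio of 4.45 and a log2 fold change of 2.16 (SE 0.224).

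Pacsin1 (ENSMUSG00000040276.15, chromosome 17, 27655509 to 27711482, plus strand) had 3.4, 4.72 and 8.22 CPM in the lowest, median and highest Control libraries and 15.9, 19.3 and 33.4 in Tardbp gRNA. The groups did not overlap, and replicate 4 was again the highest Tardbp library. The means were 5.33 ± 1.97 and 21.5 ± 5.60 CPM (SD, n = 8 per group), a ratio of 4.03 and a log2 fold change of 2.01 (SE 0.206).

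Against the 46.7% called and 23.5% called higher of all genes tested, 6.61% were higher with no overlap between groups, as all 3 genes were. Because this contrast chose them, nothing is read from that count. Among called genes without overlap whose mean log2 CPM was 3 or more, Pacsin1 had the 5th widest rise at 2.01, Izumo1r followed at 2.00 and Rgs10 at 1.89. Without that minimum, 114 genes had a wider rise than Pacsin1. The counts behind the 3 genes ran from 139 (Ifitm10, Control gRNA) to 5487 (Ephx1, Tardbp gRNA) in a library, and all 3 passed the filter on low counts.

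**Figure D1:**
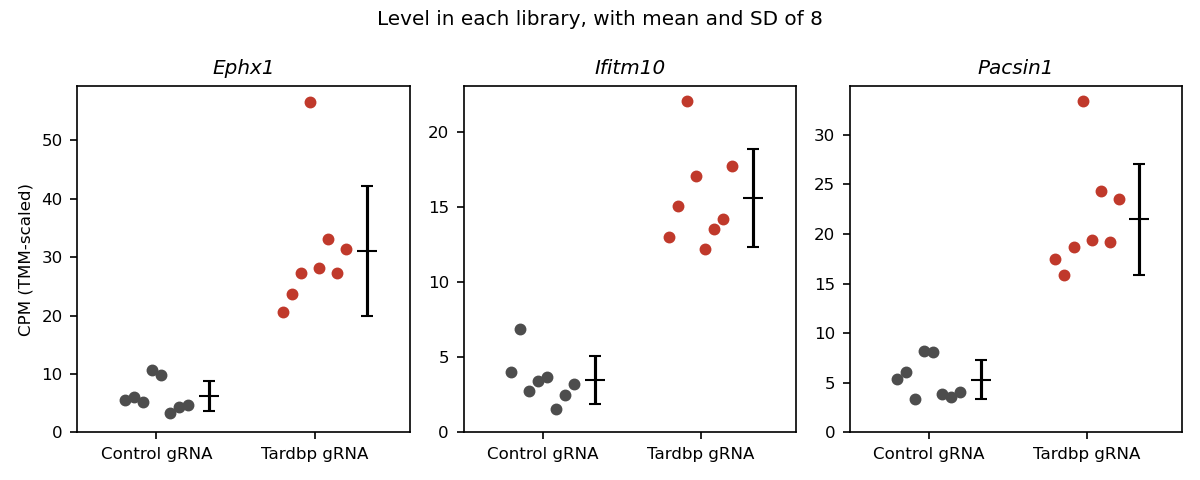
CPM (TMM-scaled, linear axis from 0) of Ephx1, Ifitm10 and Pacsin1 in each of the 8 Control gRNA and 8 Tardbp gRNA libraries, with the mean and SD beside the points. All Tardbp libraries sit above all Control libraries for each gene, and the highest point of Ephx1, at 56.7 CPM, is set apart from the next at 33.1.

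Levels can be compared between the 3 genes only per length. Per kb of transcript, Ephx1 had 3.58 ± 1.51 CPM per kb in Control gRNA and 17.8 ± 6.36 in Tardbp gRNA, Ifitm10 2.90 ± 1.26 and 13.1 ± 2.74, and Pacsin1 1.74 ± 0.990 and 6.99 ± 2.32 (SD, n = 8 per group). Ephx1 and Ifitm10 were neighbours in that order whose ranges overlapped widely in both groups. Pacsin1 had the lowest mean in both. In Control gRNA its libraries ran from 0.770 to 3.45 CPM per kb and overlapped those of Ifitm10, at 1.26 to 5.57. In Tardbp gRNA its highest library, 11.3 CPM per kb, lay just above the lowest Ifitm10 library, 10.3. The Pacsin1 values depend on how its counts are divided between a transcript of 1857 bases and those of 4176 and 4566 bases. That division is uncertain, so the place of Pacsin1 in this order is too.

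The next question was which start and which transcript carried the difference. Starts within 300 bases of each other were taken as 1 start, and a transcript's share is its counts per kb over those of its gene. Of the 21 transcripts, 6 passed the filter on low counts, namely Ephx1-201, Ifitm10-201, Ifitm10-202, Pacsin1-201, Pacsin1-204 and Pacsin1-211.

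For Ephx1, the start at 181017569 carried 99.98% of the difference in mean CPM between groups. The start of Ephx1-203, which lies 3335 bases upstream, had 0 counts in all 16 libraries, and the internal start of Ephx1-204 had 3 counts in all. Ephx1-201, with 9 exons and 455 codons, was at 3.36, 5.41 and 10.5 CPM in the lowest, median and highest Control libraries and at 20.1, 27.7 and 55.0 CPM in Tardbp gRNA. It accounted for 96.4% of the difference.

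Ephx1-202 uses the same start and differs from Ephx1-201 only in exon 6, where a later acceptor site leaves out 42 coding bases, or 14 codons, at chr1:180994046-180994087. In the pair below, capitals mark these bases.
Ephx1-201: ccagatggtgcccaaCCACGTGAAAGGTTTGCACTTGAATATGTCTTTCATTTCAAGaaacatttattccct
Ephx1-202: ccagatggtgcccaaaaacatttattccct
Ephx1-202 was listed at 0 in 7 of 8 Control libraries and in 3 of 8 Tardbp libraries, with a highest level of 0.240 and 2.56 CPM. Its share of the gene was 0.286 ± 0.810% in Control gRNA and 3.2 ± 3.77% in Tardbp gRNA (SD, n = 8 per group), and the groups overlapped. The authors' pooled Psi (how often a stretch is kept in the RNA, in columns named by letter and assigned to groups from events the study describes) went the other way for the same 42 bases, from 0.943 in the Control group to 0.973 in the Tardbp group. The 7 core exons of Ephx1 had values of 0.957 to 0.974 in the Control group and 0.986 to 0.995 in the Tardbp group.

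For Ifitm10, the start between 142372259 and 142372441 carried 99.94% of the difference, and the 3 other starts had 9 counts in all. Nearly all of it was Ifitm10-202, a transcript of 3 exons and 130 codons, which had 1.43, 3.09 and 6.21 CPM in the lowest, median and highest Control libraries and 11.9, 14 and 21.2 in Tardbp gRNA. These ranges did not overlap. Ifitm10-201, with 162 codons, starts 182 bases upstream and ends in a last exon of its own. Its share was 2.06 ± 1.53% in Control and 1.6 ± 0.647% in Tardbp libraries, and its CPM overlapped between groups. Ifitm10-202 held 97.7 ± 1.37% and 98.3 ± 0.705% of the gene (SD, n = 8 per group), a difference within the spread between libraries.

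Within the used start of Ifitm10 the authors' pooled Psi placed the first base differently between groups. The node from 142372260 to 142372441, which is the upstream part of exon 1, went from 0.736 (Control) to 0.922 (Tardbp). This node holds the bases printed above before the Ifitm10 start. The downstream part went from 0.263 to 0.0777. The transcript counts gave Ifitm10-201, which begins at the upstream start, about 2% in both groups. Ifitm10-201 also ends in a last exon of its own. No annotated transcript joins this upstream start to the end of the main transcript. The share of Ifitm10-201 thus depends on both ends, so the counts cannot place the start inside this stretch, and no comparison with the Psi is drawn. The read depth behind a Psi is unknown, and it was given as 1 value per group.

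For Pacsin1, the upstream start between 27655509 and 27655588 carried 98.6% of the difference. It had 3.37, 4.63 and 8.12 CPM in the lowest, median and highest Control libraries and 15.6, 19.0 and 32.6 in Tardbp gRNA, without overlap. The downstream start, 29609 bases further into the gene and with 4 annotated transcripts, had 0 counts in every library. The authors' pooled Psi of its first exon (27685197 to 27685425) was nevertheless above 0, with 0.110 for Control and 0.0525 for Tardbp. The 3 internal starts gave 15, 102 and 105 of the 17191 counts of the gene.

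The 3 transcripts of the upstream start code for the same length, 441 codons, from the same first coding base in exon 2 (27701888). They begin at 27655548 (Pacsin1-201), 27655509 (Pacsin1-204) and 27655588 (Pacsin1-211). They also differ in the noncoding part of exon 2 and in the length of the last exon. Pacsin1-211 was at 2.17 ± 1.28 CPM in Control and 8.97 ± 2.49 CPM in Tardbp libraries (42.1% of the difference; SD, n = 8 per group), and its lowest Tardbp library, 5.08 CPM, lay above its highest Control library, 3.90. Pacsin1-204 had 1.55 ± 2.02 and 6.22 ± 4.38 CPM (28.9% of the difference) and Pacsin1-201 had 1.56 ± 1.69 and 6.01 ± 3.30 CPM (27.6%), both with overlap.

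Their shares moved far between libraries of the same group. Pacsin1-201 took 0 to 88.5% of the gene in Control libraries and 3.96 to 50.1% in Tardbp libraries. Pacsin1-204 took 0 to 88.2% and 0.337 to 77.0%, and Pacsin1-211 took 1.35 to 86.9% and 15.4 to 51.5%. The counts placed the difference in the upstream start, while its estimated division among the 3 transcripts differed from library to library. The 3 share most exons, so that division is uncertain. Their acceptor sites are told apart by 2 stretches of exon 2. In the authors' pooled Psi these went from 0.172 to 0.187 (27701732 to 27701766) and from 0.797 to 0.808 (27701767 to 27701825). Pacsin1-201 and Pacsin1-211, whose last exons run over 2 kb beyond that of Pacsin1-204, together held 65.8 ± 39.4% of the start in Control gRNA and 56.1 ± 30.01% in Tardbp gRNA (SD, n = 8 per group). In the authors' pooled Psi the short last exon (27708426 to 27708659) went from 0.797 to 0.646 and the next 18 bases from 0.182 to 0.329, while the long remainder went from 0.0943 to 0.0433. The mean shares by counts were thus larger for the long ends, and the pooled Psi was larger for the short one, so the 2 measures differ. At the start, the node beginning at 27655588 went from 0.481 to 0.735. The node before it went from 0.349 to 0.187 and the node after it from 0.265 to 0.124.

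**Figure D2:**
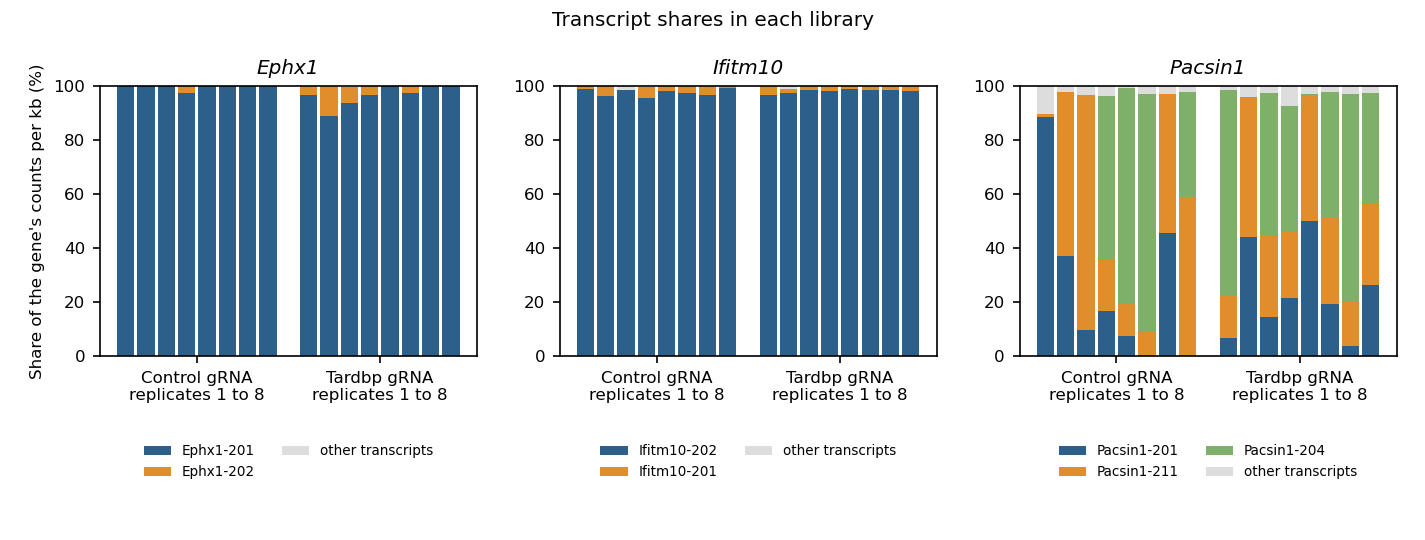
Share of each gene's counts per kb (percent, stacked from 0 to 100) taken by its main transcripts in each library, replicates 1 to 8 from left to right in each group. Ephx1-201 and Ifitm10-202 fill nearly the whole bar in every library, with Ephx1-202 reaching 11% in 1 Tardbp library. The estimated shares of the 3 Pacsin1 transcripts, which share most exons, change places from library to library.

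UG repeats are the stretches that TDP-43 favours, so TGTGTG was counted on the sense strand of the spliced transcripts. Ephx1-201, Pacsin1-201, Pacsin1-204 and Pacsin1-211 held 0, Ifitm10-202 held 1 and Ifitm10-201 held 8. Of 58797 protein-coding transcripts 55.1% held at least 1, and the median was 0.308 per kb. Introns were not searched.

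How the 3 genes vary together was tested on log2 CPM after removing each group's mean, which the choice of the genes did not use. Over 16 libraries Ephx1 and Pacsin1 varied together, with Pearson's r of 0.91 (permutation p 2e-05, adjusted over 3 pairs 6e-05) and Spearman's rho of 0.90 (permutation p 2e-05, adjusted 6e-05). Leaving out the 2 libraries with the most extreme Ephx1 gave an r of 0.84. Within Control gRNA r was 0.89 (exact permutation p 0.0031, adjusted over 6 relations 0.0093) and within Tardbp gRNA 0.95 (exact permutation p 0.000694, adjusted 0.00417). Spearman's rho was 0.83 in Control gRNA (exact permutation p 0.0154, adjusted 0.0461) and 0.95 in Tardbp gRNA (exact permutation p 0.00114, adjusted 0.00685). In Control gRNA replicates 4 and 5 lay above the other 6 libraries in both genes, at 10.7 and 9.83 CPM of Ephx1 with the others at 3.36 to 6.04. With the 2 most extreme libraries left out, r was 0.59 there and 0.99 in Tardbp gRNA, so the Control value rests in part on replicates 4 and 5. With means removed within group and deposited letter (M or F, described below) r over 16 libraries was 0.85 (adjusted permutation p 0.00555).

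Ifitm10 had a lower r with both. It was 0.45 with Ephx1 (permutation p 0.121, adjusted 0.121) and 0.47 with Pacsin1 (permutation p 0.117, adjusted 0.121), while rho was 0.59 with each (permutation p 0.0232 and 0.0353, adjusted 0.0348 and 0.0353). With the 2 most extreme libraries left out, r was 0.55 and 0.46. Within Control gRNA the r of Ifitm10 was 0.52 with Ephx1 and 0.56 with Pacsin1, and within Tardbp gRNA 0.29 and 0.20, with adjusted exact permutation p of 0.274 to 0.618. The matching rho were 0.76, 0.69, 0.24 and 0.07 (adjusted exact permutation p 0.0735 to 0.882), and r with the 2 most extreme libraries left out was 0.91, 0.74, -0.08 and 0.56. One alternative removed means also between replicate numbers 1 to 3 and 4 to 8, a division that no label names. In Control gRNA the ranges on its 2 sides overlapped, at 2.72 to 6.90 and 1.53 to 3.68 CPM for Ifitm10 and 5.27 to 6.04 and 3.36 to 10.7 CPM for Ephx1, and the difference was not tested. With means removed within group and division, r of Ifitm10 was 0.64 with Ephx1 (adjusted permutation p 0.00309) and 0.69 with Pacsin1 (adjusted permutation p 0.0147), and that of Ephx1 with Pacsin1 0.89 (adjusted permutation p 0.00135). The r of Ifitm10 passed the threshold under this division and not without it. Whether the r of the pairs differ from each other was not tested.

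**Figure D3:**
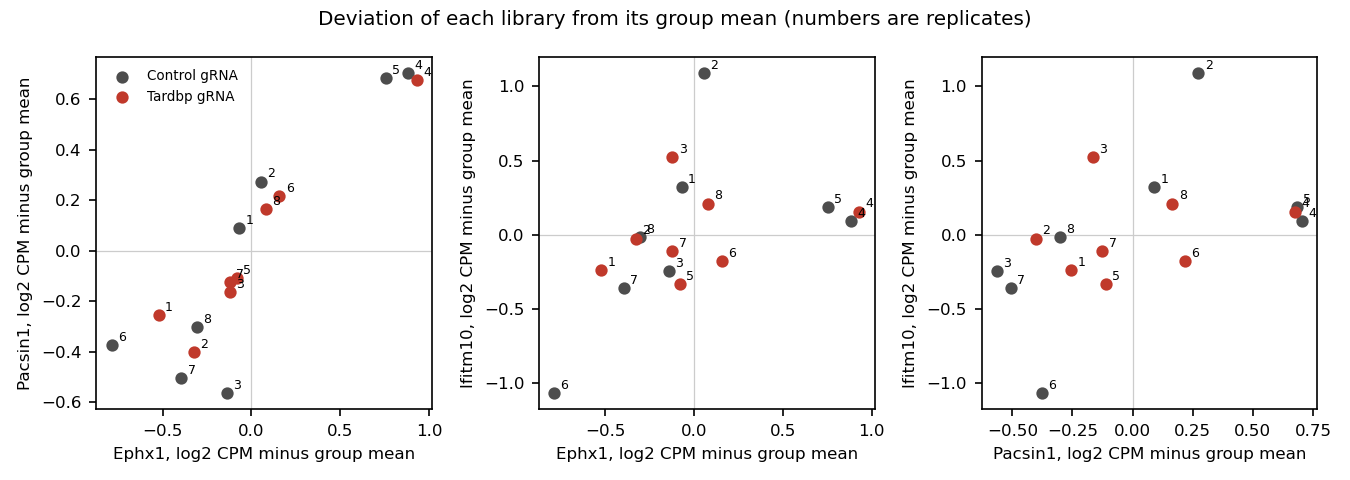
Deviation of each library from its group mean (log2 CPM) for the 3 pairs of genes, with replicate numbers beside the points (grey Control gRNA, red Tardbp gRNA). Ephx1 and Pacsin1 lie along 1 line in both groups (r = 0.91 over 16 libraries), with Control replicates 4 and 5 and Tardbp replicate 4 at the upper end, while Ifitm10 has its highest and lowest Control libraries at replicates 2 and 6.

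The spread between libraries of a group was wider than for most genes. The SD of log2 CPM within groups was 0.50 for Ephx1, 0.48 for Ifitm10 and 0.44 for Pacsin1, against a median of 0.23 over the genes tested. It was wider in Control gRNA than in Tardbp gRNA, at 0.57 and 0.43 for Ephx1, 0.62 and 0.28 for Ifitm10 and 0.51 and 0.34 for Pacsin1. This difference was not tested.

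The 3 genes were set against 6 other measures within groups, 18 relations in all. The measures were Tardbp RNA, library total, RNA concentration and the summed B cell, plasmacytoid dendritic cell and myeloid markers. The other marker lists, among them that of CD8 T cells, were not included, so their relation to the 3 genes was not tested. None of the 18 relations had an adjusted permutation p under 0.05 for r, and 3 had an unadjusted p under 0.05. Ifitm10 and Tardbp RNA gave r of -0.62 (permutation p 0.0038, adjusted 0.0682), rho of -0.49 (permutation p 0.0662, adjusted 0.596) and r of -0.34 without the 2 farthest libraries, so it rests on those. The summed myeloid markers gave r of 0.47 with Ephx1 (permutation p 0.0451, adjusted 0.270; rho 0.42, permutation p 0.107), 0.50 with Pacsin1 (permutation p 0.0288, adjusted 0.259; rho 0.44, permutation p 0.0649) and -0.12 with Ifitm10. The B cell markers gave r of 0.29, 0.20 and -0.10 with Ephx1, Pacsin1 and Ifitm10, and the RNA concentration 0.05, 0.27 and 0.15, all with adjusted permutation p of 0.863 or more.

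Genes most like each of the 3 were found by r of the same centred values among the 9033 other genes whose mean log2 CPM was 3 or more, as a description over 16 libraries that share their scaling and preparation. For Ephx1 these were Rgs10 (r = 0.92, a regulator of G protein signalling), Pacsin1 (0.91), Trac (0.88, the constant part of the T cell receptor alpha chain), Ucp2 (0.87, a mitochondrial carrier) and Nrbp1 (0.87). For Pacsin1 they were Traj33 (0.92) and Trav14d-1 (0.89), a joining and a variable segment of the alpha chain, Ephx1 (0.91), Rgs10 (0.90) and Rdh14 (0.90). Reads of receptor segments can be split among near-identical copies, so their counts are uncertain. For Ifitm10 the list was another one, led by the chemokine gene Ccl5 (0.91), then Trdc (0.88, the constant part of the delta chain), Gab3 (0.85), Gramd4 (0.84) and Ppm1h (0.83). Ephx1 and Pacsin1 were 717th and 626th in it. Ccl5 went from 6.75 ± 2.18 to 73.8 ± 14.6 CPM and Rgs10 from 8.86 ± 2.59 to 32.8 ± 8.34 CPM (SD, n = 8 per group).

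The deposited annotation gives each library a letter, M or F, with 3 M and 5 F in Control gRNA and 5 M and 3 F in Tardbp gRNA. Ephx1 and Pacsin1 were at 8.70 ± 2.77 and 7.22 ± 1.62 CPM in the M libraries of Control gRNA (SD, n = 3) and at 4.76 ± 0.997 and 4.20 ± 1.09 CPM in the F libraries (SD, n = 5). In Tardbp gRNA the letters were close, at 32.3 ± 14.4 (SD, n = 5) and 28.9 ± 2.19 CPM (SD, n = 3) for Ephx1. With group in the model, the log2 difference F minus M was -0.51 for Ephx1 (SE 0.209), -0.43 for Pacsin1 (SE 0.180) and -0.14 for Ifitm10 (SE 0.227), each with an edgeR adjusted p of 0.997. The unadjusted edgeR p was 0.0262, 0.0293 and 0.545 in the same order. Over all 16650 genes 0% were called for the letter, with 661 at an unadjusted p under 0.05 and 33 called by DESeq2, and 0% for its interaction with the group, with 662 at an unadjusted p under 0.05. Xist and the Y-linked Ddx3y were both detected in all 16 libraries, so the letter could not be read as the sex of the sequenced cells.

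Relatives of the 3 genes gave few or mixed calls. Of the other epoxide hydrolases 2 were tested and 0 called by edgeR (adjusted p 0.475 and 0.812), with 0 at an unadjusted p under 0.05 and 0 called by DESeq2. They are Ephx2, the soluble epoxide hydrolase, at 0.199 ± 0.148 and 0.238 ± 0.215 CPM, and Lta4h, which makes leukotriene B4, at 249.2 ± 16.9 and 256.2 ± 12.1 CPM (SD, n = 8 per group).

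Of 35 tested genes of xenobiotic and oxidant defence, 7 were higher and 13 lower, with a median log2 fold change of -0.26 against 0.05 for all genes tested. Among those higher, Mgst2, a microsomal glutathione transferase, went from 7.01 ± 1.59 to 18.7 ± 4.03 CPM (log2 fold change 1.42, edgeR adjusted p 7.89e-07) with no overlap. Gstm1 rose by 1.02 (edgeR adjusted p 0.00357) and Cyb5a, cytochrome b5, by 0.67 (edgeR adjusted p 1.34e-07). Among those lower, Cyp2s1 changed by -1.34 (edgeR adjusted p 3.56e-05), Srxn1, sulfiredoxin, by -1.28 (edgeR adjusted p 0.00108) and Gstt1 by -1.23 (edgeR adjusted p 0.000394). The calls of Gstm1 and Gstt1 were lost in 2 of 8 alternative fits, and within replicate numbers 1 to 3 Gstt1 was at -0.60. The share called, 57.1%, is to be read against 46.7% of all genes tested.

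Of the IFITM and dispanin family 7 other genes were tested, and 1 was higher and 3 lower (57.1% called, against 46.7% of all genes). Ifitm3, which restricts virus entry, fell from 15.4 ± 8.43 to 7.34 ± 2.50 CPM (log2 fold change -1.07, edgeR adjusted p 0.0125) and Ifitm2 from 16.9 ± 8.76 to 9.01 ± 4.67 (-0.91, edgeR adjusted p 0.0493). Prrt1 fell by 0.96 on the log2 scale (edgeR adjusted p 0.0400), and Ifitm6 was higher at 0.0560 ± 0.0610 and 0.238 ± 0.122 CPM (edgeR adjusted p 0.0295). Ifitm1 did not pass, at 38.7 ± 23.4 and 21.9 ± 14.5 CPM (edgeR adjusted p 0.146), nor did Tmem265 and Tmem91 (edgeR adjusted p 0.396 and 0.144). The calls of Ifitm2, Ifitm6 and Prrt1 were lost in 5, 5 and 6 of 8 alternative fits, and that of Ifitm3 in 2, at -0.27 with RNA concentration as a covariate and -0.29 within replicate numbers 1 to 3.

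Of 21 other F-BAR genes 3 were higher and 7 lower, a share called of 47.6% against 46.7% of all genes. The 2 paralogues of Pacsin1 were both lower: Pacsin2, which is widely expressed, went from 132.0 ± 10.3 to 93.7 ± 6.29 CPM (SD, n = 8 per group; log2 fold change -0.49, edgeR adjusted p 7.84e-07) with no overlap, and Pacsin3 from 1.02 ± 0.264 to 0.586 ± 0.292 CPM (-0.80, edgeR adjusted p 0.0297), a call lost in 3 of 8 alternative fits. Nostrin (-0.92, edgeR adjusted p 0.000163) and Trip10 (-0.55, edgeR adjusted p 2.58e-05) were lower too, and Fcho2 (0.47, edgeR adjusted p 0.00389), Arhgap4 (0.31, edgeR adjusted p 0.0152) and Arhgap45 (0.30, edgeR adjusted p 0.00842) were higher. The calls of Fcho2, Arhgap4, Arhgap45 and Trip10 were each lost in 2 of 8 alternative fits, and with RNA concentration as a covariate the first 3 were at 0.060, 0.038 and 0.097.

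Of 24 tested endocytosis partners of PACSIN proteins 7 were higher and 9 lower (66.7% called, against 46.7% of all genes). The clathrin heavy chain gene Cltc fell from 340.0 ± 43.9 to 191.2 ± 31.0 CPM (log2 fold change -0.83, edgeR adjusted p 2.34e-06), and the adaptor subunits Ap2a2 (-0.66, edgeR adjusted p 9.35e-07) and Ap2a1 (-0.48, edgeR adjusted p 2.47e-05) fell as well. The neuronal dynamin Dnm3 was higher by 0.70 (edgeR adjusted p 0.00208), the sorting nexin Snx9 by 0.59 (edgeR adjusted p 0.000225) and the adaptor subunit Ap2s1 by 0.42 (edgeR adjusted p 2.08e-07). The call of Dnm3 was lost in 3 of 8 alternative fits.

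The 43 annotated genes within 100 kb of the 3 genes gave 14 that were tested, of which 5 were higher and 3 lower. Next to Ephx1, Tmem63a lies on the opposite strand, 1098 bases beyond the annotated end of the gene. That end is that of Ephx1-204, which had 3 counts in all, while Ephx1-201 ends at 180989554. Tmem63a was at 22.7 ± 5.02 and 22.8 ± 2.79 CPM (log2 fold change 0.01, edgeR adjusted p 0.971), and Nvl (-0.31, edgeR adjusted p 4.99e-05) was lower. Next to Ifitm10, Ctsd, which encodes cathepsin D and lies 2158 bases away on the same strand, was higher by 0.24 (edgeR adjusted p 0.00805) and Lsp1 by 0.23 (edgeR adjusted p 0.0038). Gm49369, which overlaps Ifitm10 on the same strand, had 30 counts in all libraries.

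Around Pacsin1, AI413582 (0.41, edgeR adjusted p 5.65e-06), D17Wsu92e (0.39, edgeR adjusted p 0.00595) and Rps10 (0.21, edgeR adjusted p 0.00359) were higher and Hmga1 (-0.36, edgeR adjusted p 0.000825) lower. Gm49774, C130040N14Rik, Nudt3, Gm49741 and Rps2-ps9 did not pass (edgeR adjusted p 0.0525 to 0.779). The calls of Ctsd, Lsp1 and Hmga1 were lost in 2 of 8 alternative fits, with Lsp1 at 0.079 and Hmga1 at -0.22 under RNA concentration as a covariate and Ctsd at 0.11 within replicate numbers 1 to 3. The widest called change among neighbours was 0.41. The 3 genes, at 2.01 to 2.32, were chosen by this contrast, so no comparison with their size is drawn. The calls with a share of 57.1% are to be read against the background of 46.7%.

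**Figure D4:**
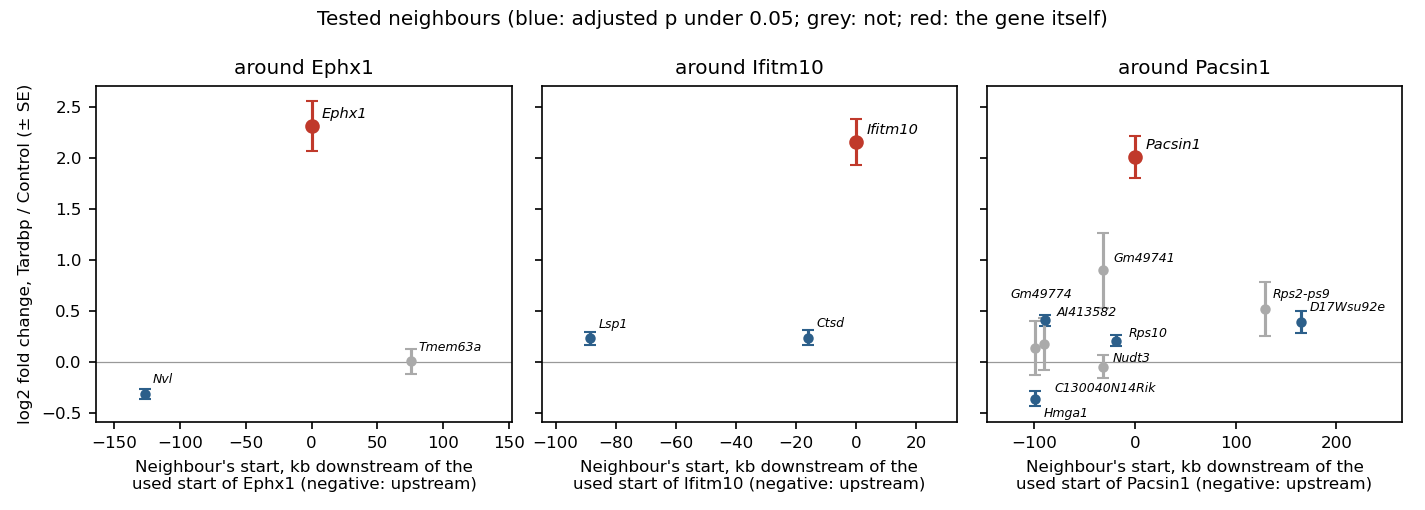
Log2 fold change (Tardbp over Control, ± SE of the edgeR fit) of 13 of the 14 tested neighbours against the distance of their start from the used start of Ephx1, Ifitm10 or Pacsin1 in kb, positive downstream. The called neighbours shown (blue) lie between -0.36 and 0.41. The 3 genes themselves (red), which were chosen for their rise, lie at 2.01 to 2.32.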

How the data were processed

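The 16 libraries were prepared by SMART-Seq v4 with Nextera XT, which keeps no strand, and sequenced as read pairs. Per the labels, the authors used HISAT2 2.1.0 (mm10) for alignment and StringTie 2.1.0 for the estimated counts of genes and transcripts. These deposited estimated counts were whole numbers, so that rounding changed none. The authors divide a gene's reads among its transcripts by a model, so transcripts that share most exons are uncertain, and PCR copies were counted. They gave Psi per node from Whippet as a deposited fraction per group. Its columns are named only by letter and were assigned to groups by events whose direction the study describes.

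Groups came from the labels. Of the count tables, 10 columns of no sample here were not used, nor were 26345 gene lines that name no annotated gene, with 0.0836 to 0.132% of the counts. Names, transcripts and coordinates are those of GENCODE M21 (GRCm38). The authors' columns of Psi differences and their probabilities were not used.

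All 55536 genes entered R 4.3.3 with edgeR 4.0.16 (TMM, filterByExpr by group with minimum count 10, minimum total 15, proportion 0.7), the quasi-likelihood test over 16 libraries with no covariate, and Benjamini-Hochberg adjustment over 16650 genes, called under 0.05, two-sided. Log2 CPM used a prior count of 2. Correlations used 100000 permutations within group, and all 40320 pairings within groups of 8, two-sided, in Python 3.11.15 with NumPy 2.4.6. The 3 genes and all lists were chosen with earlier results of these data known. Named genes are the 3, Tardbp, the 3 widest called changes in each direction of each list, all tested epoxide hydrolases, IFITM and Pacsin genes and neighbours within 100 kb, and the 5 most alike genes. Alternatives were DESeq2 1.42.0, its size factors in edgeR, no filter, covariates, subsets of libraries, other scalings of shares and leaving out each library. On simulated counts, with seeded changes, the group test was tested before use. No 2 libraries of a group held counts that agree within sampling noise. P-values set a difference or relation against the spread between these libraries. Whether libraries of a group share an electroporation is not stated, so variation between separate edits may not be covered. Some genes that enter the counts over lists are not reported here by name.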

Additional observations from a re-analysis of the deposited data

Results flagged for a closer look

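In 22 groups of 8 values (the CPM of the 3 genes, Tardbp and 7 of their transcripts), 6 had 1 library far from the other 7, where chance gives about 1 in 20 groups. Several are not independent, since a transcript is part of its gene.

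Ephx1 was at 56.7 CPM in replicate 4 of Tardbp gRNA, with the next at 33.1, and its transcript Ephx1-201 at 55.0 CPM, with the next at 32.3. The log2 fold change of Ephx1 was 2.11 to 2.44 with any 1 library left out. Ifitm10 was at 6.90 CPM in replicate 2 of Control gRNA, with the next at 4.04. Tardbp was at 110.4 CPM in replicate 3 of Tardbp gRNA, with the next at 129.8. Pacsin1-201 was at 5.13 CPM in replicate 1 of Control gRNA, with the next at 2.17. Ephx1-202 was at 0.240 CPM in replicate 4 of Control gRNA, and listed at 0 in the other 7 libraries of that group.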

How the results depend on the processing

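The rises of the 3 genes kept their direction under every alternative fit and with any 1 library left out, at 2.11 to 2.44 for Ephx1, 2.04 to 2.37 for Ifitm10 and 1.86 to 2.12 for Pacsin1 in the latter. With log2 RNA concentration as a covariate Pacsin1 rose by 2.46. RNA concentration does not overlap between groups, and this fit leaves little to separate them.

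Replicate numbers are shared between groups, and whether they pair the libraries is not known. Deviations of same-numbered libraries correlated at -0.126 to 0.327, 4 of 8 of them over 0.1, and 4 of 16 libraries were most like their own number. Replicate 1 had the lowest Ddx3y of each group, at 20.8 (Control) and 18.3 CPM (Tardbp), and the highest Xist. The highest Ddx3y was in replicate 2 of Control gRNA and replicate 5 of Tardbp gRNA. The main fit and the permutations took the libraries as unpaired. With the replicate block, the log2 fold changes were 2.35, 2.24 and 2.05 for Ephx1, Ifitm10 and Pacsin1.

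Counts of calls fell under the fit with RNA concentration and within numbers 1 to 3 alone, which has fewer libraries. Over all genes they were 1010 higher and 1687 lower with the covariate, and 556 and 1140 within numbers 1 to 3. In the same order, with higher before lower and only counts that fell by over 1.5 times, xenobiotic defence had 2 with the covariate, and 2 and 5 within numbers 1 to 3. The IFITM list had 0 and 0 with the covariate and 0 lower within numbers 1 to 3, F-BAR genes 0 and 3, then 0 and 2, endocytosis partners 2 and 5, then 1 and 2, and neighbours 3 and 1, then 0 and 0. The IFITM list also had 0 higher and 1 lower with the letter as a covariate and with no filter, and 0 higher under the replicate block.

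Signs of uncalled genes turned for Tmem63a (-0.0075 with the letter, -0.068 with RNA concentration, -0.12 within numbers 1 to 3), C130040N14Rik (-0.86 with RNA concentration, -0.36 within numbers 1 to 3), Nudt3 (0.29 and 0.078) and Tmem265 (-0.50 with RNA concentration).

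By counts in place of counts per kb, the share of the upstream Pacsin1 start in Tardbp gRNA was 98.8% (against 96.9%), Ifitm10-201 took 5.72% in Control gRNA and 4.55% in Tardbp gRNA, and Ifitm10-202 94.2% and 95.4%. The r of Ifitm10 passed the threshold with means removed by number division, at 0.64 with Ephx1 and 0.69 with Pacsin1. Of the 18 relations with other measures, 1 passed with means removed by letter, and 0 to 2 with 1 library left out, when Tardbp and Ifitm10 gave -0.71 to -0.52. That r was -0.66 by letter (adjusted permutation p 0.0182), and leaving out replicate 1 of Control gRNA or replicate 1 of Tardbp gRNA brought it past the threshold. Without replicate 1 of Control gRNA the share of Pacsin1-201 there was 16.8%, without replicate 4 that of Ephx1-202 was 0%, without replicate 2 of Tardbp gRNA that of Ephx1-202 was 2.09%, and without replicate 6 of Control gRNA the r of Ephx1 and Ifitm10 was 0.24. The letter called 33 genes by DESeq2 and 0 in the other fits. The cause of these changes was not tested.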
